A study of Homo sapiens with 6 samples.

Results

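The MHC class I molecules and the proteins that load them with peptide were described in RH36 cells through all 22 probes whose gene name on the array was HLA-B, HLA-C, HLA-E, HLA-F, HLA-G, B2M, TAP1, TAP2 or TAPBP. The probes were taken by gene name alone, but the genes were chosen with earlier results of these data known. The members make up 9 of the 30484 gene names, 22 of the 41000 probes and 40 of the 43376 spots on each array. RH36 is a human cell line of embryonal rhabdomyosarcoma (ERMS), a childhood tumour of muscle lineage. Its cells were transiently transfected with pre-miR-27a, a synthetic precursor that raises miR-27a (n = 3), or with a negative pre-control (n = 3), and the RNA of each sample was labelled with Cy3 and hybridized to its own array. The labels name the samples biological replicates 1 to 3 of each group and give a precursor concentration of 10 nM, with 48 hours for the pre-miR-27a samples, whereas the study's methods give another concentration, reagent and time; which of them applies to the arrays is not settled. All samples come from 1 cell line, so the spread between them is that of cultures and not of tumours.

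MHC class I molecules stand at the surface of nearly all nucleated cells and show peptides cut from the cell's own proteins to CD8+ T cells and natural killer cells. Each is a heavy chain, encoded by an HLA gene, bound to the invariant light chain beta-2-microglobulin (B2M). Peptides made by the proteasome are pumped into the endoplasmic reticulum by the transporter TAP1/TAP2, and tapasin (TAPBP) holds the empty heavy chain at the transporter until a peptide of sufficient affinity binds. Many tumours carry low amounts of these molecules, and interferons raise them.

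The mature strands of miR-27a are shown because they are what the transfected precursor supplies. The sequences are those of RefSeq on GRCh38.p14, 5′ to 3′, with the seed (bases 2 to 8), which pairs with target transcripts, in capitals.
hsa-miR-27a-3p: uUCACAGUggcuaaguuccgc
hsa-miR-27a-5p: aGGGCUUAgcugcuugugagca

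Stretches of the promoters of HLA-B, HLA-C, B2M, TAP1 and TAPBP are shown as the control regions of a pair of heavy chains, the light chain, the transporter and tapasin. RefSeq promoters (250 bases before to 50 after a start of transcription, GRCh38.p14) were held for 8 of the 9 genes, without HLA-E. Capitals mark matches, on either strand, to GAAANNGAAA (the core of the interferon-stimulated response element), GGGGATTC (part of the NF-kappa B site of enhancer A), TGACG (the core of a cAMP response element) and CCAAT (the box bound by NF-Y). Of 35116 promoters of the same length, 3.57% held the first, 0.888% the second, 24.6% TGACG and 34.6% CCAAT.
HLA-B, chr6:31357225-31357362, minus strand: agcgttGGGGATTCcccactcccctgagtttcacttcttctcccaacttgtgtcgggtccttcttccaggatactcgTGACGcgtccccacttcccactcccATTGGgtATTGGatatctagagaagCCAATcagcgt
HLA-C, chr6:31272138-31272290, minus strand: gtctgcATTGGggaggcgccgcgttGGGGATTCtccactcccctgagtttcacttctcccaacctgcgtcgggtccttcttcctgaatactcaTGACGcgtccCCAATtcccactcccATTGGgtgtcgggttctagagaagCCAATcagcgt
B2M, chr15:44711367-44711478, plus strand: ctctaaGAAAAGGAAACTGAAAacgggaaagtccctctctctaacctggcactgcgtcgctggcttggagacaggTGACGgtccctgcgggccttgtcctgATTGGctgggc
TAP1, chr6:32853817-32853954, minus strand: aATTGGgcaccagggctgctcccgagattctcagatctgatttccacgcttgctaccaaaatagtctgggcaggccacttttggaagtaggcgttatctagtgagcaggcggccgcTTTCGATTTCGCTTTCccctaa
TAPBP, chr6:33314079-33314104, minus strand: ttggagGAAAGTGAAAGTGAAAggag

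Both HLA-B and HLA-C held GGGGATTC, TGACG and several CCAAT matches, 1 of which, at −192 in HLA-C, preceded the others, with GGGGATTC at −177 in HLA-B and at −173 in HLA-C, counted from the start of transcription. B2M held TGACG and a CCAAT box, with the interferon motif starting at −144 and again, overlapping it, at −138. The interferon motif was also matched by 2 overlapping copies in TAP1, from −134 on the opposite strand, and in TAPBP, from −20. HLA-F (−156, opposite strand) and TAP2 (−58) held 1 copy each. A match describes the letters in this window and not a bound site. Only exact matches were marked, so a promoter without a mark may still hold a variant of the motif.

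Signals are log2 of the processed intensity after quantile normalization, a difference is the mean of the pre-miR-27a arrays minus that of the pre-control arrays, and adjusted p-values are those of limma over all 36469 probes kept. The share of spots well above background was 69.9% to 73.9% in the pre-control group against 74.1% to 78.0% in the pre-miR-27a group, and the median local background was 74.5 to 76 and 52.5 to 53 intensity units, respectively. The file headers give the 3 pre-control arrays 1 scan and the 3 pre-miR-27a arrays another, so scan and transfection cannot be told apart. The number of arrays limits the precision, with a median standard error of 0.14 for a log2 difference. Probes of different sequence are not comparable in level, so each probe is compared only with itself. In RNA from a whole culture, fewer expressing cells and less RNA per cell cannot be told apart.

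No member probe passed the test without the replicate number as a block. With limma, 0 of the 22 probes had an adjusted p under 0.05, against 7.83% of all probes, and the lowest adjusted p was 0.129. An unadjusted limma p under 0.05 was found for 4 of the 22, beside 9037 of all 36469 probes. Same-numbered arrays of both groups deviated together across the whole array, and with the replicate number as a block 1 of the 22 probes (4.55%) passed, an HLA-C probe that was lower on pre-miR-27a arrays, against 14.9% of all probes. By point estimate, 14 probes were lower and 8 higher on pre-miR-27a arrays, with 4 of the 22 not well above background on any array. Over all genes by the brightest probe, 15399 were lower and 11929 higher. The groups of arrays did not overlap for 3 of the 22 probes (13.6%), 1 each of HLA-B, TAP2 and TAPBP and all lower, against 32.5% of all probes. With the brightest probe standing for each gene, the median difference of the 9 genes was −0.27, beside −0.04 for all 27328 genes. It was −0.14 without pre-control replicate 1 and −0.16 without pre-miR-27a replicate 2, and turned to 0.06 when all probes of a gene were averaged. That average mixed probes of unlike level, the 4 never well above background among them, with missing spots left out. A missing spot therefore shifts a gene's mean, as for HLA-G, whose bright probe was missing on pre-control array 3. HLA-F and TAPBP had no missing spot, and each had probes in both directions. The part of missing spots in the turn was not tested. In the fit without the block and the fit with it, the shares of members called or not overlapping stood below those of all probes. This did not hold for the block combined with 4 other settings, where 7 to 10 member probes were called. The shares of all probes called by these settings are given in the closing section, and for some of them the margin was small.

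**Figure D1:**
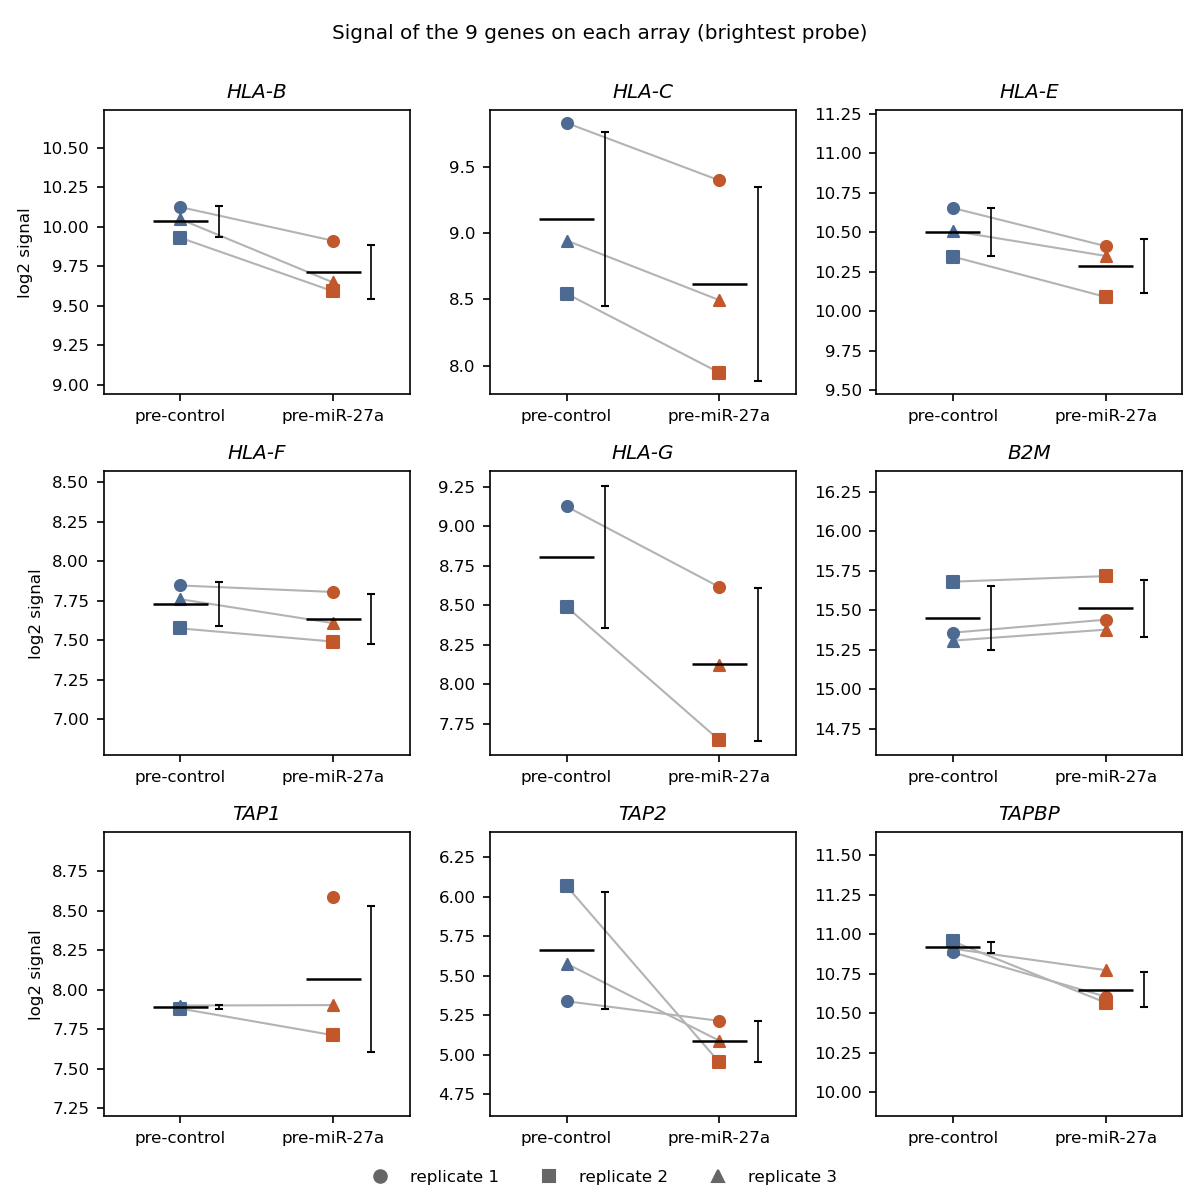
Log2 signal (vertical axis) of the brightest probe of each of the 9 genes on the 3 pre-control arrays (blue) and the 3 pre-miR-27a arrays (orange), with same-numbered arrays joined by grey lines, horizontal bars at the group means and error bars of 1 SD beside them. HLA-C differs more between cultures than between transfections, B2M is nearly level, and in HLA-G and TAP1 a pre-control spot was not found, so 1 line is missing.

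Among the classical heavy chains, HLA-B (NM_005514) had 2 probes. Probe A_24_P113674 (hg18, chr6:31430895-31430954, minus strand) read 10.12, 9.93 and 10.05 on pre-control arrays 1, 2 and 3, and 9.91, 9.59 and 9.65 on pre-miR-27a arrays 1, 2 and 3. Every pre-miR-27a array lay below every pre-control array, with a difference of −0.32 (SE 0.12, 95% interval −0.61 to −0.03, limma adjusted p 0.168, and 0.060 with the replicate block). Its exact two-sided permutation p was 0.1, the smallest that 3 against 3 samples allow. Probe A_23_P125107 (chr6:31431079-31431138) read 7.96, 7.27 and 7.53 against 7.74, 6.95 and 7.27. Its groups overlapped, although each pre-miR-27a array was below the pre-control array of the same number, by −0.23, −0.32 and −0.26.

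HLA-C, the other classical chain here and the main class I ligand of killer cell immunoglobulin-like receptors, had 4 probes. The one that passed with the block, A_23_P113716 (BC002463, chr6:31429768-31429819, minus strand), read 9.83, 8.54 and 8.94 on pre-control arrays and 9.40, 7.95 and 8.49 on pre-miR-27a arrays. The groups overlapped widely, since replicate 1 was the highest and replicate 2 the lowest in both. Within same-numbered pairs the differences were −0.43, −0.60 and −0.45. Leaving out single arrays moved the mean difference of −0.49 between −0.13 (without pre-control replicate 1; −0.16 without pre-miR-27a replicate 2) and −0.89 (without pre-miR-27a replicate 1; −0.78 without pre-control replicate 2). It had a 95% interval of −1.69 to 0.70 without the block (limma adjusted p 0.589) and of −0.68 to −0.31 with it (adjusted p 0.0362), and leaving out any 1 of the 3 pairs left no probe on the array with an adjusted p under 0.05 in the blocked limma fit, with 8801 to 10430 at an unadjusted p under 0.05.

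Probe A_24_P298409, designed on the HLA-C transcript NM_002117 (chr6:31344612-31344671), read 9.22, 7.62 and 7.82 against 8.67, 7.10 and 7.60, a difference of −0.43 (adjusted p 0.706, and 0.0652 with the block). Its direction rested on pre-control replicate 1, without which the difference was 0.07. A_23_P95917 (BC008457, chr6:31430871-31430936) read 9.10, 8.11 and 8.45 against 8.63, 7.85 and 8.18, and its difference was −0.33. The remaining probe, A_23_P70539 (BC002463, chr6:31347078-31347387), showed 7.65, 6.92 and 7.51 against 7.61, 7.11 and 7.35, and its difference of −0.0042 had an interval of −0.58 to 0.57.

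The HLA-B and HLA-C labels of these probes are uncertain. On hg18, HLA-C probes A_23_P113716 and A_23_P95917 lay beside the HLA-B probes and far from the other HLA-C probes, and A_23_P95917 overlapped HLA-B probe A_24_P113674 by 42 bases. The heavy chain genes are closely similar paralogs, and whether a signal holds transcripts of more than 1 of them was not tested, since no probe sequences were used here. The intervals of A_23_P70539 (310 bases), HLA-F A_23_P314024 (642 bases) and TAPBP A_23_P259580 (7889 bases) are longer than a probe, as for one that spans an intron. Whether a probe lies in coding sequence or in an untranslated region was not determined.

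The spread of HLA-C between same-group samples was larger than its difference between transfections. On A_23_P113716, replicate 1 exceeded replicate 2 by 1.29 on pre-control arrays and by 1.45 on pre-miR-27a arrays, and on A_24_P298409 by 1.60 and 1.58. The pooled SD of the replicates was 0.698 and 0.839 for these probes, larger than that of 98.7% and 99.3% of the 25717 probes well above background on every array, whose median was 0.152. A_23_P113716 was printed 10 times on each array, and the SD of its found spots within an array was 0.045 to 0.084, which covers the error of printing and reading a spot but not that of labelling or hybridization. Of the 14 member probes well above background on every array with no missing value, 9 (64.3%) had replicate 1 highest and replicate 2 lowest in both groups, against 8.71% of all such probes. These 9 were all heavy chain probes, of HLA-B, HLA-C, HLA-E and HLA-F, among the 10 heavy chain probes so measured. Whether these probes detect each other's transcripts was not tested, so they cannot be counted as independent.

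**Figure D2:**
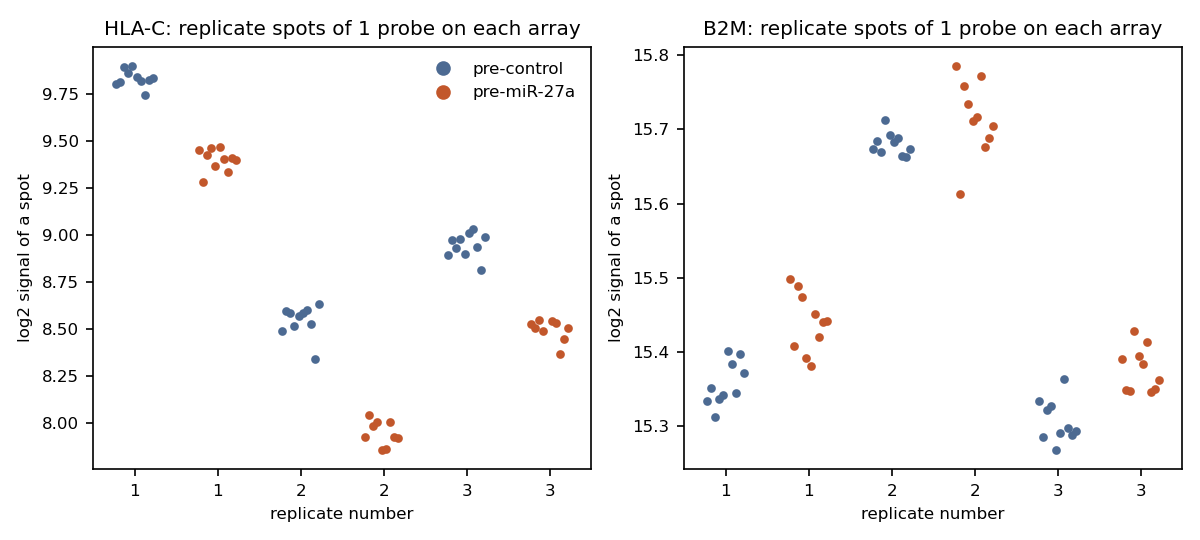
Log2 signal (vertical axis) of the found replicate spots of HLA-C probe A_23_P113716 (left) and of the B2M probe (right) on each array, ordered by replicate number (horizontal axis), pre-control in blue and pre-miR-27a in orange; the vertical scales differ. In HLA-C replicate 1 is highest and replicate 2 lowest, whereas in B2M replicate 2 is highest.

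HLA-E, a non-classical chain that shows leader peptides of the other heavy chains to the NKG2A receptor of natural killer cells, had 3 probes on NM_005516, all well above background on every array. A_32_P460973 (chr6:30568708-30568767, plus strand) read 10.65, 10.35 and 10.51 on pre-control arrays and 10.41, 10.09 and 10.35 on pre-miR-27a arrays. It was lower in every same-numbered pair, and its groups overlapped (difference −0.22, SE 0.13, limma adjusted p 0.368). A_24_P326082 and A_23_P30848 differed by −0.12 and 0.07, with intervals of −0.42 to 0.18 and −0.26 to 0.40. The 3 probes of this gene therefore did not share a direction.

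HLA-F, a further non-classical chain, read 7.85, 7.57 and 7.76 on pre-control arrays and 7.81, 7.49 and 7.61 on pre-miR-27a arrays by A_23_P145264 (NM_018950, chr6:29800992-29801051). Its groups overlapped, and the difference was −0.09 (interval −0.39 to 0.21). The second probe, A_23_P314024, was dim, being well above background on 2 of the 3 pre-control arrays. It read 5.04, 4.53 and 5.33 against 5.69, 5.33 and 5.61, higher by 0.57 (SE 0.23, limma adjusted p 0.195), opposite to the brighter probe.

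HLA-G, known for its restricted expression at the placenta, had 1 probe above background, A_24_P311926 (NM_002127, chr6:29906673-29906732, plus strand). It read 9.13 and 8.49 on pre-control arrays 1 and 2, with the spot of array 3 not found, and 8.62, 7.65 and 8.12 on the pre-miR-27a arrays. The difference of −0.68 (SE 0.35, 5 arrays) had an interval of −1.61 to 0.25 and an adjusted p of 0.324 with limma, and was −0.36 without pre-control replicate 1 and −0.44 without pre-miR-27a replicate 2. The spot not found had a signal of 8.81, and with it the difference was −0.68 as well. Neither A_23_P361614 nor A_23_P300112 was well above background anywhere, so that no fold is given for them and a transcript of HLA-G rests on a single probe whose match to other heavy chains was not tested.

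B2M, the light chain common to all of these molecules, had 1 probe, A_23_P37441 (NM_004048, hg18, chr15:42795065-42795124, plus strand), printed 10 times on each array. It read 15.36, 15.68 and 15.31 on pre-control arrays and 15.44, 15.72 and 15.38 on pre-miR-27a arrays, and no spot was saturated. The groups overlapped, and replicate 2 was the highest and replicate 3 the lowest in both, an order not shared with the heavy chains. The difference was 0.06 (SE 0.15, interval −0.30 to 0.43, limma adjusted p 0.841), and within pairs it was 0.08, 0.04 and 0.07. Under scaling by the 75th percentile in place of quantile normalization the difference turned to −0.11, so B2M has no settled direction.

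TAP1, a subunit of the peptide transporter, read 7.88 and 7.90 on pre-control arrays 2 and 3 by A_23_P59005 (NM_000593, chr6:32921188-32921247, minus strand), and 8.59, 7.71 and 7.90 on the pre-miR-27a arrays. The spot of pre-control array 1 was not found, yet it carried a signal of 8.45. The difference was 0.18 (interval −0.58 to 0.93, limma adjusted p 0.762) without that spot, −0.01 with it, and −0.08 with the replicate block. Thus replicate 1 was the highest in the pre-miR-27a group, and the sign of the difference depended on 1 spot.

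TAP2, the partner subunit, was dim but well above background on all arrays by A_23_P214444 (NM_000544, chr6:32903645-32903704, minus strand), with 5.34, 6.07 and 5.58 on pre-control arrays and 5.21, 4.95 and 5.09 on pre-miR-27a arrays. Every pre-miR-27a array was below every pre-control array. The difference of −0.58 (SE 0.20, interval −1.08 to −0.08) had a limma adjusted p of 0.154, and its size varied from −0.12 to −1.12 between pairs. It was −0.14 under normexp background correction (limma adjusted p 0.469) and −0.37 without pre-control replicate 2. The second probe, A_23_P368067 on NM_018833, was never well above background.

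TAPBP had 4 probes. The brightest, A_23_P365719 (NM_003190, chr6:33375696-33375755, minus strand), read 10.88, 10.95 and 10.91 on pre-control arrays and 10.60, 10.57 and 10.77 on pre-miR-27a arrays. The groups did not overlap, and the difference of −0.27 (SE 0.09, interval −0.48 to −0.05) had an adjusted p of 0.129 with limma, the lowest of the members without the block, and of 0.0952 with it. Among the probes for other transcripts, A_23_P315336 (NM_172209) differed by −0.10 and A_23_P259580 (NM_172209), well above background on 2 of the 3 pre-control arrays, by 0.27. No array showed A_23_P360291 (NM_172208) well above background. Of its probes above background, the groups did not overlap for the brightest alone.

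Over the 14 probes measured well above background on every array, 10 (71.4%) were lower on the pre-miR-27a array in every same-numbered pair, against 37.6% of all such probes. Of these 10, 8 were heavy chain probes, which cannot be counted as independent. Among the 14, B2M alone was higher in every pair. The filter left out HLA-F A_23_P314024 (0.64, 0.80 and 0.28) and TAPBP A_23_P259580 (0.41, 0.35 and 0.06), each higher in every pair and not well above background on every pre-control array. Left out for a missing spot were HLA-G A_24_P311926, lower in both pairs measured (−0.51 and −0.84), and TAP1 (−0.17 and 0.003).

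**Figure D3:**
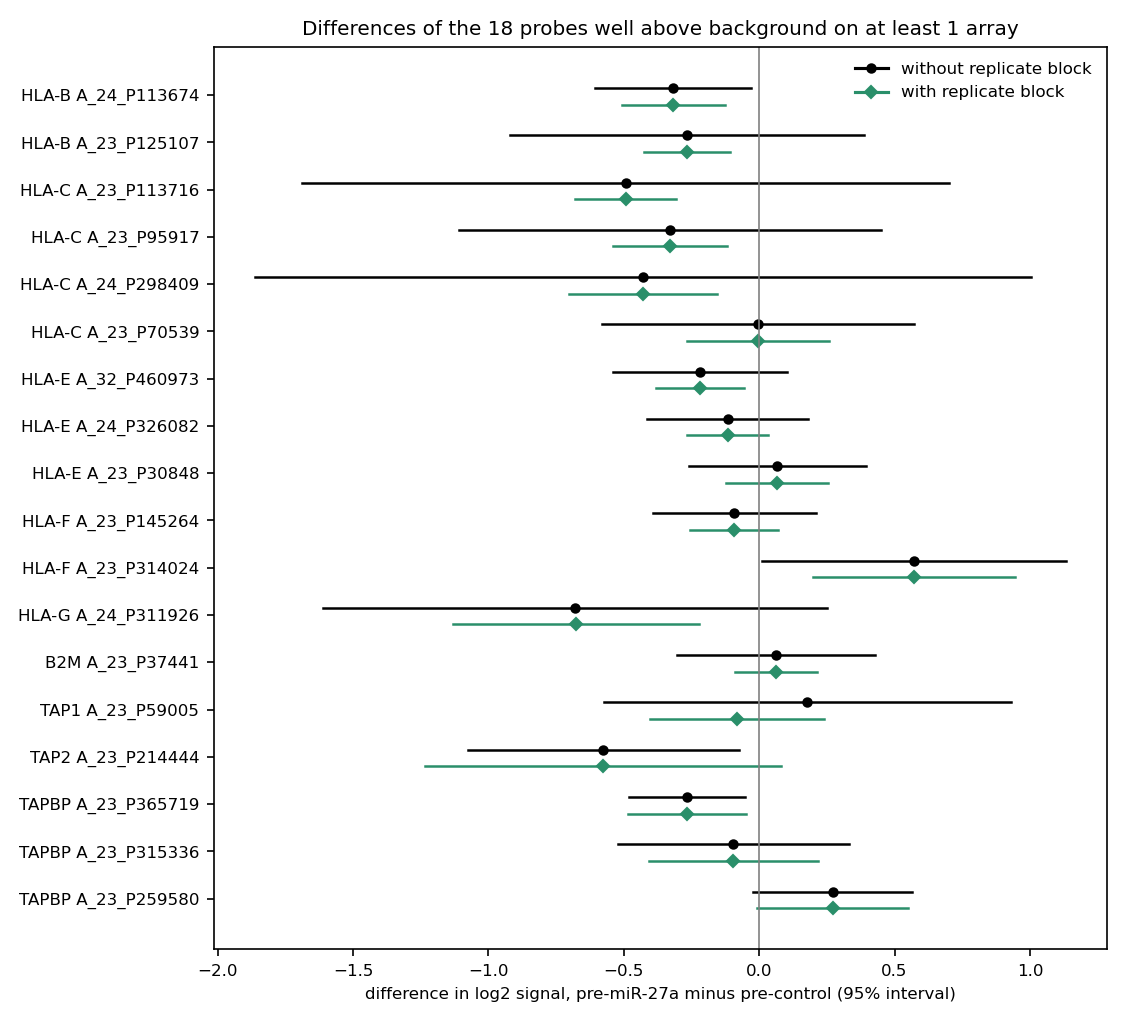
Difference in log2 signal (horizontal axis, pre-miR-27a minus pre-control) with its 95% interval for the 18 member probes well above background on at least 1 array, without (black circles) and with (green diamonds) the replicate number as a block. The interval of HLA-C probe A_23_P113716 narrows with the block from −1.69 to 0.70 to −0.68 to −0.31.

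The other genes of the pathway were taken as 7 lists, with 90 genes that had a probe kept. By the brightest probe, 6 of these passed the test without the block and 13 with it. In the array as a whole 3.07% of genes were called higher and 4.33% lower without the block, and 14.1% were called in either direction with it.

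Of the 11 loading partners, 0 passed by the brightest probe without the block and 2, both lower, with it. The median difference of the list was −0.07. LNPEP, named after its values were seen, had 2 less bright probes called without the block. Its less bright probes differed by 0.35 to 0.82 and its brightest by 0.03. Calreticulin (CALR), the chaperone that joins tapasin in the loading complex, read 15.22, 15.13 and 15.10 on pre-control arrays and 14.95, 14.83 and 14.72 on pre-miR-27a arrays. Its groups did not overlap (difference −0.32, limma adjusted p 0.101, 0.0487 with the block). SEC61A1, a channel subunit of the endoplasmic reticulum named after its value was seen, differed by −0.42 (limma adjusted p 0.0521, 0.0492 with the block), and SEC61B by −0.11 with both of its probes. None of the 6 measured genes of the immunoproteasome and proteasome activator passed in either fit (median −0.09). The activator subunit PSME2 differed by −0.03 and the assembly factor POMP by −0.04, while PSMB8 was removed for missing spots.

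Of 23 transcriptional regulators of class I genes, all well above background, 1 rose and 2 fell by the brightest probe. Less bright probes were called without the block for JAK1 and CIITA, both named after their values were seen. The called JAK1 probe differed by 0.76 (brightest 0.02). For CIITA 1 was called, its less bright probes ranging from −0.27 to 1.29 (brightest −0.90). IFNAR2, a subunit of the type I interferon receptor, read 6.21, 6.20 and 6.14 on pre-control arrays and 7.57, 7.51 and 7.36 on pre-miR-27a arrays, with no overlap (difference 1.30, SE 0.09, limma adjusted p 0.0161). IRF2, a factor that binds the interferon-stimulated response element, fell by 0.68 (adjusted p 0.0391 with limma), but its other probe differed by 0.04. NFYC, a subunit of the factor bound at CCAAT boxes, fell by 0.41 (adjusted p 0.0467 with limma), and its other measured probe differed by −0.19. The median of the list was −0.08, and NLRC5, the transactivator of class I genes, differed by −0.28 (adjusted p 0.459 with limma), its other probes ranging from −0.16 to 0.49. It was named after its value was seen.

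Among 12 class I-like molecules and NKG2D ligands, 0 passed without the block and 1 with it, FCGRT, the neonatal Fc receptor that also pairs with B2M (difference −0.34, limma adjusted p 0.179, 0.0446 with the block). ULBP2, a ligand of NKG2D, differed by −0.51 on 5 arrays (limma adjusted p 0.216), and its other probes by −0.36 and −0.27. The class I pseudogene HLA-H differed by −0.07 and did not pass in either fit. It read 7.68, 7.08 and 7.23 against 7.64, 7.02 and 7.14, again with replicate 1 the highest and replicate 2 the lowest in both groups.

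The 14 class II genes, normally expressed by professional antigen-presenting cells, had 2 that fell and a median of −0.37. HLA-DOB (difference −0.77, limma adjusted p 0.0262) and HLA-DOA (−0.71, adjusted p 0.020) encode the inhibitor of class II peptide exchange, and the other HLA-DOA probes ranged from −1.08 to 0.46. For 6 of the 14, among them HLA-DRA and the invariant chain CD74, no array was well above background. Of 23 interferon response genes measured, 1 fell, and the median was −0.11. This was IFI6 (−0.76, limma adjusted p 0.021), whose other probes ranged from −0.83 to 0.60, while BST2 and IFIT1 differed by −0.05 and −0.11.

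**Figure D4:**
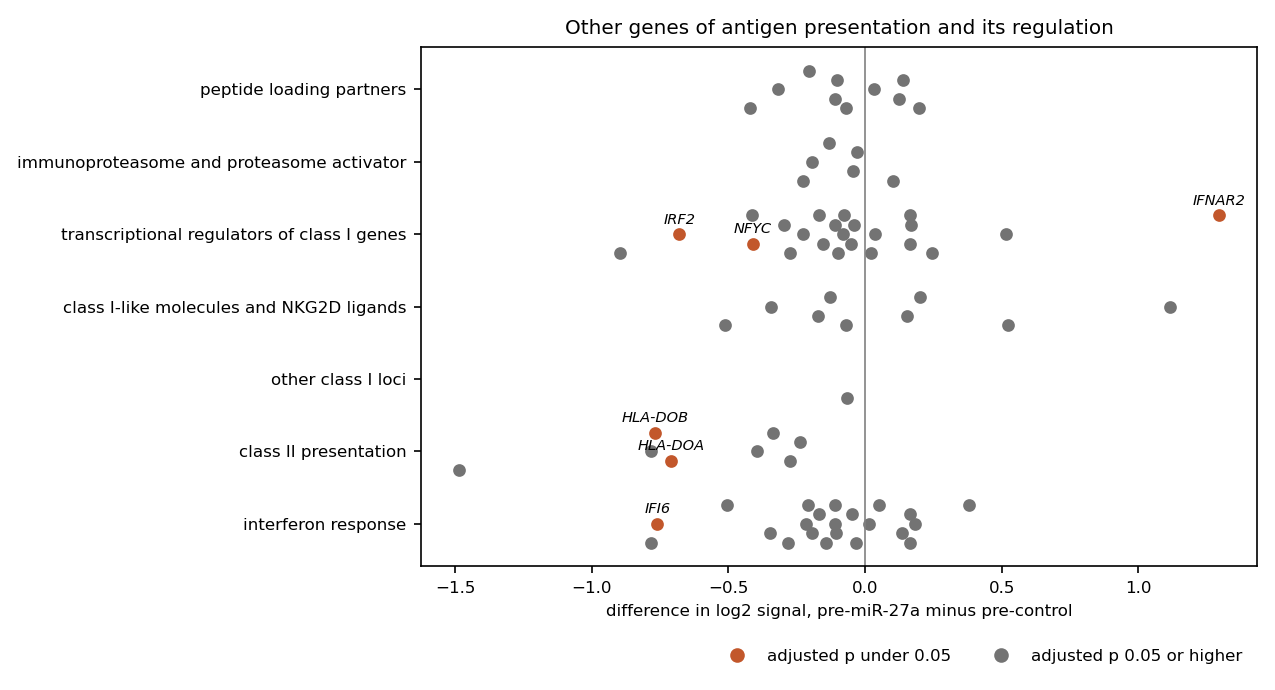
Difference in log2 signal (horizontal axis, pre-miR-27a minus pre-control) of 79 genes of the 7 lists by the brightest probe; the 11 genes not well above background on any array are left out. The 6 genes with an adjusted p under 0.05 without the block are named in orange, and IFNAR2, at 1.30, lies furthest to the higher side. MICB, at 1.12, was well above background on only 1 array, of the pre-miR-27a group, and did not pass.

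The labelled cell type was checked with 12 myogenic markers, of which 10 were measured and all 10 were well above background on every array, among them MYOD1, MYOG, DES and ACTC1. By the brightest probe 0 of these passed the test without the block, and with it 3 were lower. The less bright CHRNA1 probe was called higher without the block (0.95). Of 10 leukocyte markers, taken as a check for other cells, 5 were lower (CD79A −0.96, CD14 −0.71, FCER1G −0.62, TYROBP −0.56 and CD3E −0.44, whose other probe was at −0.05). The summed linear signal of the 10 markers was 5628 to 6431 in the pre-control group against 3344 to 3557. CD79A and FCER1G, with pre-control means of 11.87 and 10.56 in log2, made up most of this sum, so it mainly repeats their differences. Of the 10, 7 were well above background on every array, among them CD68 and ITGAM, which differed by −0.41 each and did not pass without the block. PTPRC and LYZ were not well above background on any of the 6 arrays. By point estimate 7 of the 10 were lower and 3 higher, LYZ among the latter (0.93). Of 5 endothelial markers 0 passed, and of 5 epithelial markers KRT18 was higher by its brightest probe (0.51, others 0.21 to 0.78) and KRT8 lower (−0.70), the other KRT8 probe being at 0.75, with EPCAM and CDH1 not well above background. The part of these markers in the class I values was not tested.

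The mean centred profile of the 7 member genes well above background on every array with no missing value was highest on pre-control array 1 (0.23) and lowest on pre-miR-27a array 2 (−0.30). By root mean square difference over the 6 arrays, the transcripts with the most similar profiles among 18942 were BC042517 (0.0276), DBNDD2 (0.0279), NUDT2 (0.0316), ECSIT (0.0324) and LGALS9 (0.0325), against a size of the profile itself of 0.175. None of these 5 had an adjusted p under 0.05 with limma, and a likeness over 6 arrays is a description only.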

How the data were processed

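RNA of RH36 cells was measured on 6 one-colour Agilent arrays of 60-base probes. The authors deposited for each spot the processed intensity of Feature Extraction, with background subtracted but without normalization between arrays, and a table of 33169 probes in log2 units that differed from the values computed here by a median of 0.0041. Control spots were left out, log2 intensities were quantile normalized, spots with a found flag of 0 were set to missing, spots of a probe were averaged, and a probe missing on more than 1 array was removed. Groups were compared with limma 3.58.1 in R 4.3.3, with Benjamini-Hochberg adjustment over 36469 probes and a threshold of 0.05. The study's SAM rests on relabelled arrays and was not computed. The pipeline was tested on simulated data.

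Members and lists were chosen with earlier results of these data known. Each gene is given by its brightest probe, and a member's other probes stand beside it; from each list up to 4 called genes are named, or where fewer than 2 were called the 2 brightest. Some names were matched through accessions (ERAP1 is ARTS-1 on the array, IRF9 is ISGF3G). One gene of the lists is not reported here. The likeness rule took the 5 nearest profiles. Probe positions come from the array files (hg18).

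The deviations from the group means correlated between same-numbered arrays at 0.396, 0.456 and 0.409 across 31717 probes, against −0.266 to −0.123 for different numbers, so the numbers, which the labels give, were taken to pair the arrays. Alternatives were 75th percentile scaling, normexp (offset 50), other filters, the deposited values, a variance trend with robust estimation, the block, the mean of a gene's probes and leaving out arrays. Left-out pairs and the block combined with other settings were added after the data were seen.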

Additional observations from a re-analysis of the deposited data

How the results depend on the processing

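Without the replicate block, no member probe was called under 75th percentile scaling, normexp, no filter, only probes well above background, the deposited values, or trend and robust estimation. In that order, these settings called 8.93%, 9.7%, 7.3%, 12.3%, 10.1% and 9.26% of all probes tested. With the replicate block, 1 of the 22 probes and 1 gene were called, and 13 list genes in place of 6. Combined with the block, 75th percentile scaling called 1 probe, 1 gene and 12 list genes, no filter 2 probes, 2 genes and 10 list genes, only probes well above background 7 probes, 3 genes and 17 list genes, the deposited values 7 probes, 3 genes and 16 list genes, trend and robust estimation 7 probes, 5 genes and 17 list genes, and normexp 10 probes, 5 genes and 18 list genes. The same settings called 13.4%, 11.7%, 33.4%, 25.7%, 28.8% and 30.6% of all probes tested. The member probes tested numbered 18 with only probes well above background, 19 with the deposited values and 22 otherwise. In the last 4 combinations the share of members called thus lay above that of all probes, in place of below it. With so few members these shares are coarse. They were close to those of all probes with only probes well above background and with trend and robust estimation. The heavy chain probes cannot be counted as independent. HLA-C A_23_P113716 was lower and called in each of these 6 combinations, and HLA-G A_24_P311926 in each but 75th percentile scaling. Leaving out arrays, singly or as a pair, with or without the block, gave 0 to 1 member probes (the 1 was TAPBP A_23_P360291, not above background, without pre-control replicate 1), 0 member genes and 0 to 3 list genes. Calls were lost on the whole array as well. Without the block, 1219 of all probes (3.29%) were called without pre-control replicate 1 and 83 (0.224%) without pre-control replicate 3. Leaving out any other single array left 0. The cause of these differences between settings was not tested.

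The median of the 9 genes was −0.31 to −0.14 when arrays were left out, and turned to 0.0624 with the mean of all probes of a gene, where 2 list genes were called. That mean mixed probes of unlike level with missing spots left out, so a missing spot shifts it, and the part of this in the turn was not tested. Among single probes, HLA-C A_23_P70539 turned to 0.0013 under 75th percentile scaling (with or without the block) and 0.0555 under normexp (likewise), and ranged from −0.22 to 0.14 when arrays were left out (0.0133 and 0.0712 with the block without replicate 1 and 3). B2M turned to −0.11 under 75th percentile scaling, and ranged from −0.0401 to 0.178 when arrays were left out. TAP1 turned to −0.0095 with no filter or only probes well above background, to −0.0094 with the deposited values, to −0.0828 with the replicate block or the block with trend and robust estimation, to −0.0495 with the block and 75th percentile scaling and to −0.022 with the block and normexp, and ranged from −0.0828 to 0.356 when arrays were left out. Likewise HLA-C A_24_P298409 ranged from −0.871 to 0.0705, HLA-E A_23_P30848 from −0.048 to 0.133 and TAPBP A_23_P315336 from −0.27 to 0.0078. The 4 probes not well above background on any array were not followed. Dim signals, as of TAP2, lie near the background, which differed between groups.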
